A study of Mus musculus with 17 samples.

Results

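The AP-1 transcription factor genes, the FOS family (Fos, Fosb, Fosl1 and Fosl2) and the JUN family (Jun, Junb and Jund), were followed in RNA sequencing libraries of alveolar epithelial type 2 (AT2) cells, which make lung surfactant. The 7 genes were chosen by symbol and matched to Ensembl gene IDs among the 43430 genes of each count table, and all 7 were found in both tables. In the ISRIB experiment, AT2 cells were sorted from naive C57BL/6J mice aged 2 months, 24 h after vehicle (4 libraries, titled saline) or ISRIB (4 libraries), an inhibitor of the integrated stress response. In the bleomycin experiment, AT2 cells came from C57BL/6J mice of the same age, either naive (4 libraries) or 14 days after bleomycin, an agent toxic to lung tissue (5 libraries). All 9 libraries of the second experiment are labelled as vehicle-treated, naive and bleomycin alike. The first experiment used a poly(A) kit on 3 ng of RNA and the second a total-RNA kit on 0.35 ng, so each comparison was made within its own kit. The labels used here give no dose and do not say whether replicates came from separate mice, so p-values measure the spread between libraries.

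AP-1 is a dimer of basic leucine zipper proteins that binds short DNA sites of the form TGANTCA. JUN proteins pair with each other or with FOS proteins, whereas FOS proteins need a JUN partner to bind DNA. Fos, Fosb, Jun and Junb are immediate-early genes, switched on within minutes by growth factors, stress or tissue dissociation, while Jund is expressed more steadily and Fosl1 and Fosl2 encode the FOS-related proteins FRA1 and FRA2.

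The promoters of the immediate-early members are shown as background, and their part in the changes that follow was not tested. Each line gives the stretch from 130 to 11 bases before the RefSeq transcript start (GRCm38.p6), 5′ to 3′ on the gene's strand. Capitals mark TGACG, the core of the cyclic AMP response element, TGACATCA, a variant of that element in the Jun promoter, and TATAAA.
Fos, chr12:85473760-85473879, plus strand: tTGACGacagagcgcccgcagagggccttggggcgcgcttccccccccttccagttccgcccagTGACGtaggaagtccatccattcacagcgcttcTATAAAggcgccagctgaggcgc
Fosb, chr7:19310056-19310175, minus strand: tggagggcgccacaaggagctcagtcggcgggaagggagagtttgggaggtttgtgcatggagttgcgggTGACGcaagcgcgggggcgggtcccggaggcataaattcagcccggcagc
Junb, chr8:84978759-84978878, minus strand: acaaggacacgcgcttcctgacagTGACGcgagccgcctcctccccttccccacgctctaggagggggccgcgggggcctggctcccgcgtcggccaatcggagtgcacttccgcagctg
Jun, chr4:95052233-95052352, minus strand: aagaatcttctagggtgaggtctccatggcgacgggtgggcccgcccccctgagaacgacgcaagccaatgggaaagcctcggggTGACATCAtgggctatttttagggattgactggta

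In RefSeq windows from 250 bases before to 50 after the start, searched on both strands, Fos held TGACG at positions -129 and -66, Fosb at -60 and Junb at -106. Of 32851 such windows genome-wide, 20.8% held TGACG. The whole element TGACGTCA, which contains TGACG, stood in none of the members' windows and in 1.79% of all. TGACATCA was found at position -45 of Jun and in 3.62% of all windows. The AP-1 site TGANTCA (7.81% of all windows) and the CArG box, the serum response factor site (1.63%), matched in none of the 6 members with a window. Sites more than 250 bases before the start lie outside these windows and were not searched. CCAAT stood in Jun at -65 and in Junb at -36 (37.4% of all windows), and TATAAA stood in Fos at -33 and in Junb at position 1 (13.6%). The GENCODE start of Junb lies 30 bases downstream of the RefSeq start. The RefSeq starts of Fosl2 and Jund lie 671 and 1210 bases from the GENCODE starts, so their windows do not cover those starts and are not printed. Fosl1 was not matched.

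Libraries held 10493574 to 15727139 counts in the poly(A) set and 3295257 to 6333166 in the total-RNA one, and the 7 genes together took 0.0469% to 0.0769% of them. The labelled cell type was checked against 11 AT2 markers, which summed to 177778 to 189785 CPM (counts scaled to a common library size) with the poly(A) kit. With the total-RNA kit they summed to 80914 to 88246 CPM in naive and 50851 to 89438 CPM in bleomycin libraries. The 11 macrophage, monocyte and neutrophil markers summed to 6.08 to 11.4 CPM over all libraries, with C1qa at 0 in both sets, C1qc at 0 in the poly(A) set, and Marco and S100a8 at 0 in the total-RNA set. The 7 lymphocyte markers summed to 15.8 to 20.9 CPM in the poly(A) set, with Cd3e, Cd3d, Ms4a1 and Nkg7 at 0. Cd79b carried nearly all of that sum, with 18.6 to 20.9 CPM in vehicle and 15.8 to 17.2 CPM in ISRIB libraries. In the total-RNA set the lymphocyte markers summed to 1.32 to 9.59 CPM, with Cd3d and Ms4a1 at 0. The 8 airway epithelial markers reached 2369 to 4291 CPM with the poly(A) kit and 449 to 943 CPM with the total-RNA kit.

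Levels of different genes were compared as CPM per kilobase of exon, from the GENCODE M21 gene models. In vehicle libraries the order was Jund (180 ± 11.7, SD, n = 4), Jun (52.2 ± 4.93), Junb (42.7 ± 4.42), Fos (15 ± 0.642), Fosl2 (5.70 ± 0.581), Fosb (1.19 ± 0.247) and Fosl1 (0.471 ± 0.180). Jun and Junb were the only neighbours in that order whose ranges over the 4 libraries overlapped, and Jun was above Junb in each of the 4. Jund supplied 60.6% ± 1.11 (SD, n = 4) of the family's summed level per kilobase in vehicle libraries. In naive total-RNA libraries the order was Jund (121 ± 7.12, n = 4), Jun (99.7 ± 8.40), Fos (35.1 ± 5.64), Junb (25.3 ± 2.61), Fosl2 (3.79 ± 0.574), Fosb (3.68 ± 0.850) and Fosl1 (0.0263 ± 0.0525). Here Fosl2 and Fosb overlapped, and Fos was above Junb in 4 of 4 libraries, whereas Junb was above Fos in 4 of 4 vehicle libraries. The kits differ between these control groups, so their levels were not compared by a test. The plot of summed levels by library shows the make-up of the family.

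**Figure D1:**
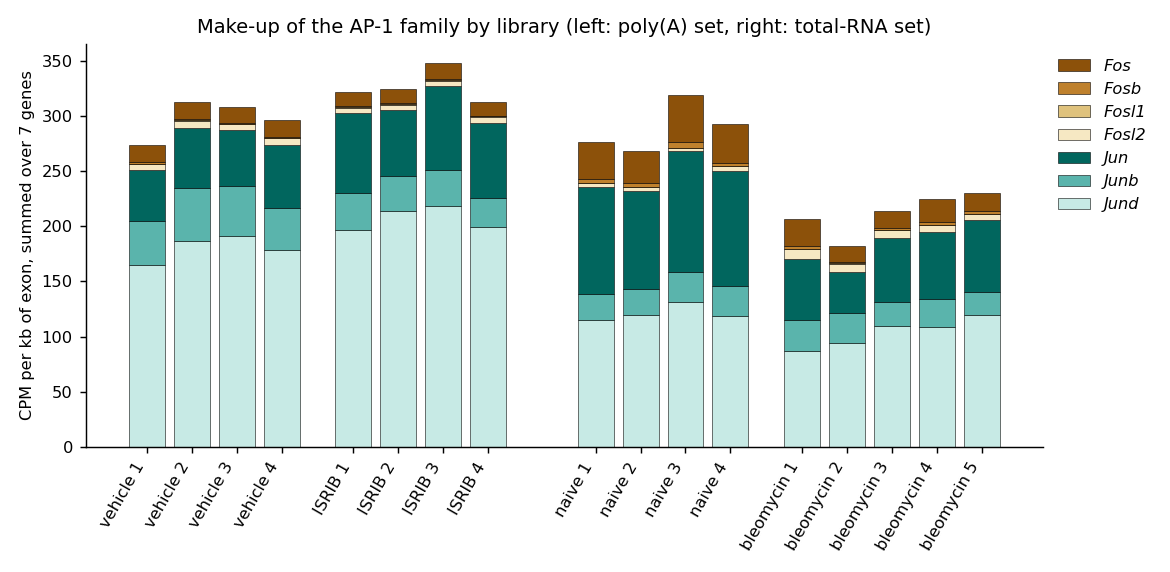
Stacked bars give the level of each AP-1 gene in CPM per kilobase of exon (vertical axis, from 0) in each of the 17 libraries, the poly(A) set on the left and the total-RNA set on the right. Jund and Jun make up most of every bar, and the naive bars (268 to 319) stand above the bleomycin bars (182 to 230).

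The ISRIB comparison asked which genes the drug altered in AT2 cells without injury. Jun rose and Junb fell, so the JUN family moved in both directions at once. Jun was 1.32-fold higher and Junb fell by 27.6%, while Jund and the FOS genes changed by less and did not pass an adjusted p of 0.05. Of the 7 genes, 6 had enough counts to be tested, and 2 of these 6 were called (33.3%, 1 higher and 1 lower), against 2.2% of the 12054 genes tested (1.1% in each direction). Groups did not overlap for Jun and Jund, which were higher (4.26% of all genes), and for Junb, which was lower (4.39%). The median log2 fold change of the 6 was -0.16, and that of all tested genes was -0.000137.

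Jun (ENSMUSG00000052684, GRCm38 chromosome 4, 95049034 to 95052222) is a single-exon gene that encodes c-Jun, the main partner of FOS proteins. Its level was 147, 174.5, 161.7 and 183 CPM in vehicle libraries 1 to 4, and 230, 188, 243 and 217 CPM in ISRIB libraries 1 to 4. Each ISRIB library lay above each vehicle library, with the smallest gap between vehicle 4 and ISRIB 2. Its log2 fold change was 0.40 (SE 0.08; 95% interval from 0.24 to 0.56; edgeR adjusted p 0.0137). Without vehicle 1 the change was 0.34 and no longer passed (adjusted p 0.0546).

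Junb (ENSMUSG00000052837, chromosome 8, 84974484 to 84978718) encodes a JUN protein that activates transcription less than c-Jun does and can counter it. It had 92.5, 110.1, 103 and 87.6 CPM in the vehicle libraries and 76.9, 74.1, 74.2 and 59.6 CPM in the ISRIB libraries. The groups did not overlap, as for 8.65% of all genes tested, and ISRIB 4 was lowest. The log2 fold change was -0.47 (SE 0.08, 95% interval -0.64 to -0.29, adjusted p 0.00817 by edgeR), and it passed without any single library. The log2 ratio of Jun to Junb CPM was 0.65 to 1.06 in vehicle libraries and 1.35 to 1.87 in ISRIB libraries. These ranges had to stand apart, because Jun was higher and Junb lower in every ISRIB library, so they add no evidence.

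Jund (ENSMUSG00000071076, chromosome 8, 70698949 to 70700616), the steadily expressed JUN gene, had 275, 311, 319 and 298 CPM in the vehicle libraries and 328, 356.5, 365 and 333 CPM in the ISRIB libraries. The ISRIB values all stood above the vehicle values, but the change of 0.20 (95% interval 0.08 to 0.32) did not pass with an adjusted p of 0.0841 by edgeR. It passed with DESeq2 (0.026) and without the filter on low counts (0.0305).

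Among the FOS genes no change passed the threshold. Fos (ENSMUSG00000021250, chromosome 12, 85473890 to 85477273) had 35.4, 36.4, 33.0 and 35.9 CPM in the vehicle libraries and 30.0, 30.1, 34.1 and 28.6 CPM in the ISRIB libraries. ISRIB 3 lay within the vehicle range and the other three lay below it. The log2 fold change was -0.19 (95% interval -0.35 to -0.04, adjusted p 0.197 by edgeR). Fosb (ENSMUSG00000003545, chromosome 7, 19302696 to 19310051) had 5.82 to 8.86 CPM after vehicle and 4.21 to 6.80 CPM after ISRIB, a change of -0.34 (-0.72 to 0.03, adjusted p 0.361). Fosl2 (ENSMUSG00000029135, chromosome 5, 32135801 to 32157842) had 49.3 to 62.6 and 47.7 to 55.4 CPM, a change of -0.13 (-0.29 to 0.03, adjusted p 0.419). Fosl1 (ENSMUSG00000024912, chromosome 19, 5447547 to 5455946) had 9 to 17 counts per vehicle library and 3 to 11 per ISRIB library and was below the filter, so it was not tested. The log2 ratio of Jun to Fos ran from 2.05 to 2.35 in vehicle libraries and from 2.64 to 2.94 in ISRIB libraries.

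**Figure D2:**
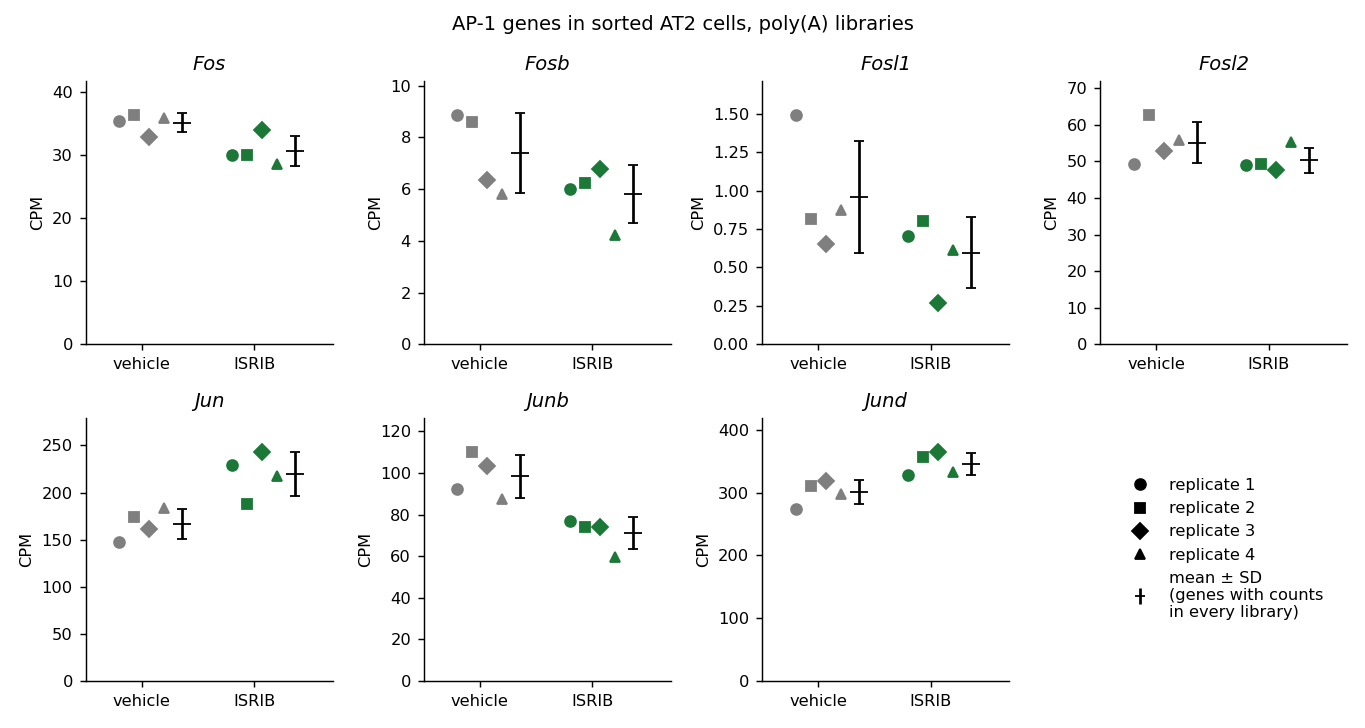
Each panel gives 1 AP-1 gene in CPM (vertical axis, from 0) for the 4 vehicle and 4 ISRIB libraries, with a marker shape per replicate and the mean ± SD beside each group. Jun and Jund sit higher and Junb lower in every ISRIB library than in any vehicle library, while the FOS genes overlap between groups.

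Other genes of the pathway were read from lists of related factors. Over all 12054 genes tested, 2.2% were called and 1934 had an unadjusted p under 0.05. None of the 17 tested MAP kinase cascade genes, which carry the signals that switch on AP-1, was called by edgeR, and 2 had an unadjusted p under 0.05. DESeq2 and limma-voom also called 0 of them. Of 9 tested partners from the ATF, BATF, JDP and MAF families 0 were called by edgeR (3 at an unadjusted p under 0.05), 1 by DESeq2 and 0 by limma-voom. Atf3, a stress-induced partner of JUN, had 4.72 to 7.01 CPM after vehicle and 7.37 to 16.5 CPM after ISRIB, a change of 0.76 (adjusted p 0.096 by edgeR). It passed with DESeq2 (0.042), without the filter on low counts (3.64e-05), and without ISRIB 1 (0.0451) or ISRIB 2 (0.0496). It did not pass with limma-voom (0.162), and without ISRIB 4 the change was 0.48 (0.27). Among 10 turnover genes, such as the ubiquitin ligases of JUN, edgeR called 0 (1 at an unadjusted p under 0.05), DESeq2 1 and limma-voom 0.

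Srf, the serum response factor that drives many immediate-early promoters, was the 1 gene called of 12 tested promoter factors. It rose from 51.5 ± 1.65 to 64.4 ± 4.63 CPM (SD, n = 4 each), or by 0.32 on the log2 scale (adjusted p 0.0147 by edgeR), and no longer passed without vehicle 1 (0.0559) or vehicle 2 (0.0582). Of 25 other immediate-early genes tested, 3 were called, against 2.2% of all genes (5 with DESeq2 or without ISRIB 2, and 6 without the filter). Egr1, a zinc finger factor induced by the ERK kinases, fell from 28.2 ± 4 to 14.9 ± 3.68 CPM, a change of -0.93 (adjusted p 0.00309). Socs3, an inhibitor of cytokine signalling, fell from 102 ± 21.1 to 60.2 ± 2.11 CPM (-0.76, adjusted p 0.00121). The orphan receptor gene Nr4a3, named after its values were seen, rose from 0.969 ± 0.343 to 3.17 ± 0.907 CPM (1.71, adjusted p 0.00961). It reached the filter's cutoff of 0.883 CPM in 2 of 4 vehicle and 4 of 4 ISRIB libraries. Nr4a3 therefore passed the filter through the ISRIB group, and its call gives no support.

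Of 10 tested ERK feedback genes, the phosphatase gene Dusp6 (-0.59, adjusted p 4.53e-04) and the ETS factor gene Etv5 (-0.28, adjusted p 0.00817) fell and no gene rose. Of all genes tested, 1.1% were called lower. Among 18 genes described as AP-1 targets 8 were tested, and 1, the EGF receptor ligand gene Hbegf, was called. It fell from 14.8 ± 0.537 to 9.55 ± 1.10 CPM (-0.64, adjusted p 0.00677 by edgeR, n = 4 each). The median of these 8 was -0.18, and that of all genes was -0.000137.

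Markers of other cells gave 2 calls after ISRIB, both lower (all genes tested: 1.1%) and both among the 10 transitional epithelial markers. These summed to 652 to 784 CPM in vehicle and 565 to 653 CPM in ISRIB libraries, and their part in the AP-1 result was not tested.

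Heat shock genes, which like the AP-1 genes respond to stress and cell handling, rose in part after ISRIB. Of 11 tested, 6 rose and none fell, with a median log2 fold change of 0.41. The remaining 5, among them Hspb1 (-0.12) and Hsp90ab1 (-0.0023), were not called. Of all genes tested, 1.1% were called higher. The count of heat shock genes called fell to 2 without vehicle 1 or vehicle 2 and to 3 without ISRIB 3. Hsph1, an HSP70 cofactor gene, rose from 22.6 ± 3.34 to 52.6 ± 19.2 CPM (1.20, adjusted p 0.00479 by edgeR, n = 4 each). Hspa1a, an inducible HSP70 gene, had 2.28, 4.25, 4.06 and 15.3 CPM in vehicle libraries 1 to 4 and 33.8, 5.61, 67.6 and 41.9 CPM in ISRIB libraries 1 to 4 (2.57, adjusted p 0.0196 by edgeR). Hspa1b, its near-identical neighbour, with which it may share reads, changed by 2.71 (adjusted p 0.0129). From low to high, the vehicle libraries stood in the order 1, 3, 2, 4 for Jun and Hspa1a but 2, 1, 3, 4 for Hspa1b. In the ISRIB group the order was 2, 4, 1, 3 for Jun and 2, 1, 4, 3 for Hspa1a and Hspa1b. Egr1 stood in another order, with vehicle 4 lowest and vehicle 1 highest. These orders of 4 libraries are a description only, and the part of cell handling in the Jun result was not tested. The calls for Hspa1a and Hspa1b were lost without vehicle 1 (adjusted p 0.0741 and 0.0524) or vehicle 2 (0.0769 and 0.0562), and with limma-voom (0.151 and 0.0747). Hspa1a also no longer passed without vehicle 3 (0.0552), without ISRIB 3 (0.0535) or with DESeq2 (0.0621).

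The bleomycin comparison asked how AT2 cells differed 14 days after lung injury. Fos, Fosb and Jun fell, Fosl2 rose, and Junb and Jund were not called. Fos fell by 48.2%, Jun fell by 44.7% and Fosb fell by 38.9%, while Fosl2 was 1.85-fold higher. Of the 6 members tested 4 were called (66.7%, 1 higher and 3 lower), against 20.5% of the 11223 genes tested (11.2% higher and 9.31% lower). Groups did not overlap for Fosl2, which was higher (10.4% of all genes), and for Fos, Fosb and Jun, which were lower (9.35%). The median log2 fold change of the 6 was -0.47, and that of all tested genes was 0.00259. In bulk libraries fewer cells that express a gene and less RNA per cell cannot be told apart.

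Fos had 78.2, 69.0, 100.6 and 82.3 CPM in naive libraries 1 to 4, and 58.2, 35.0, 35.5, 47.3 and 39.0 CPM in bleomycin libraries 1 to 5. The groups did not overlap, as for 19.7% of all genes tested, with naive 3 highest and bleomycin 2 lowest. The log2 fold change was -0.95 (SE 0.16, 95% interval -1.29 to -0.61, adjusted p 3.81e-04 by edgeR). Fosb, a close relative of Fos, had 20.1, 20.9, 30.9 and 19.97 CPM in the naive and 18.0, 8.12, 12.8, 18.6 and 13.6 CPM in the bleomycin libraries. Naive 3 stood far above the other naive libraries, and the highest bleomycin library (bleomycin 4, 60 counts) lay just below the lowest naive one (naive 4, 67 counts). The change of Fosb was -0.71 (SE 0.24, -1.21 to -0.21, adjusted p 0.0413 by edgeR) and rested on single libraries. It no longer passed without naive 1 (adjusted p 0.0615), naive 2 (0.0689), naive 3 (change -0.54, 0.184), naive 4 (0.064), bleomycin 2 (0.0834), bleomycin 3 (0.0831) or bleomycin 5 (0.0748).

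Fosl2, the gene of the FOS-related protein FRA2, moved the other way. It had 36.9, 32.0, 33.3 and 44.4 CPM in the naive libraries and 81.2, 68.6, 68.4, 63.7 and 57.2 CPM in the bleomycin libraries. The lowest bleomycin value exceeded the highest naive value. The log2 fold change was 0.89 (SE 0.14, 95% interval 0.59 to 1.19, adjusted p 2.60e-04 by edgeR). The log2 ratio of Fos to Fosl2 CPM lay between 0.89 and 1.59 in naive and between -0.97 and -0.43 in bleomycin libraries. As Fos was lower and Fosl2 higher in every bleomycin library than in any naive one, these ranges had to stand apart. Fosl2 supplied 1.32% ± 0.208 (SD, n = 4) of the family's summed level per kilobase in naive and 3.35% ± 0.627 (n = 5) in bleomycin libraries. Fosl1, the gene of FRA1, had 1 count in all 4 naive libraries together and 8 in the 5 bleomycin ones, in bleomycin 2 and bleomycin 5. It was not tested, and a count of 0 allows up to 0.465 to 1.01 CPM (3 counts, counting error only) in the 6 libraries without a count.

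Jun had 310, 285, 346.5 and 331 CPM in the naive libraries and 177, 118, 185, 193 and 206 CPM in the bleomycin libraries. The groups were well apart and bleomycin 2 was lowest. The log2 fold change was -0.86 (SE 0.14, 95% interval -1.15 to -0.56, adjusted p 2.86e-04 by edgeR). Junb had 53.3, 52.8, 63.0 and 63.8 CPM in the naive and 64.3, 63.3, 50.8, 57.6 and 47.5 CPM in the bleomycin libraries. These ranges lay across each other, and the change of -0.04 (95% interval -0.32 to 0.24, adjusted p 0.861) had a sign that turned without naive 4 (0.0021), bleomycin 3 (0.0053) or bleomycin 5 (0.026). Jund had 192, 200.2, 219.5 and 198 CPM in the naive and 146, 157, 182, 182 and 200.2 CPM in the bleomycin libraries, a change of -0.22 (-0.46 to 0.02, adjusted p 0.189 by edgeR). Bleomycin 5 lay inside the naive range of Jund and the other four lay below it.

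The relative order within the family changed with these falls. Per kilobase of exon, Fos was above Junb in 4 of 4 naive libraries, and Junb was above Fos in 5 of 5 bleomycin libraries, although the ranges of the genes overlapped across the bleomycin libraries. The log2 ratio of Junb to Fos CPM ran from -0.67 to -0.37 in the naive and from 0.14 to 0.855 in the bleomycin group. The summed level of the FOS genes was 42.6 ± 6.35 CPM per kilobase in naive (n = 4) and 27.7 ± 5.22 in bleomycin libraries (n = 5), and the naive minimum of 36.1 stood just above the bleomycin maximum of 36.0. The summed level of the JUN genes was 246 ± 16.1 and 184 ± 18.8.

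**Figure D3:**
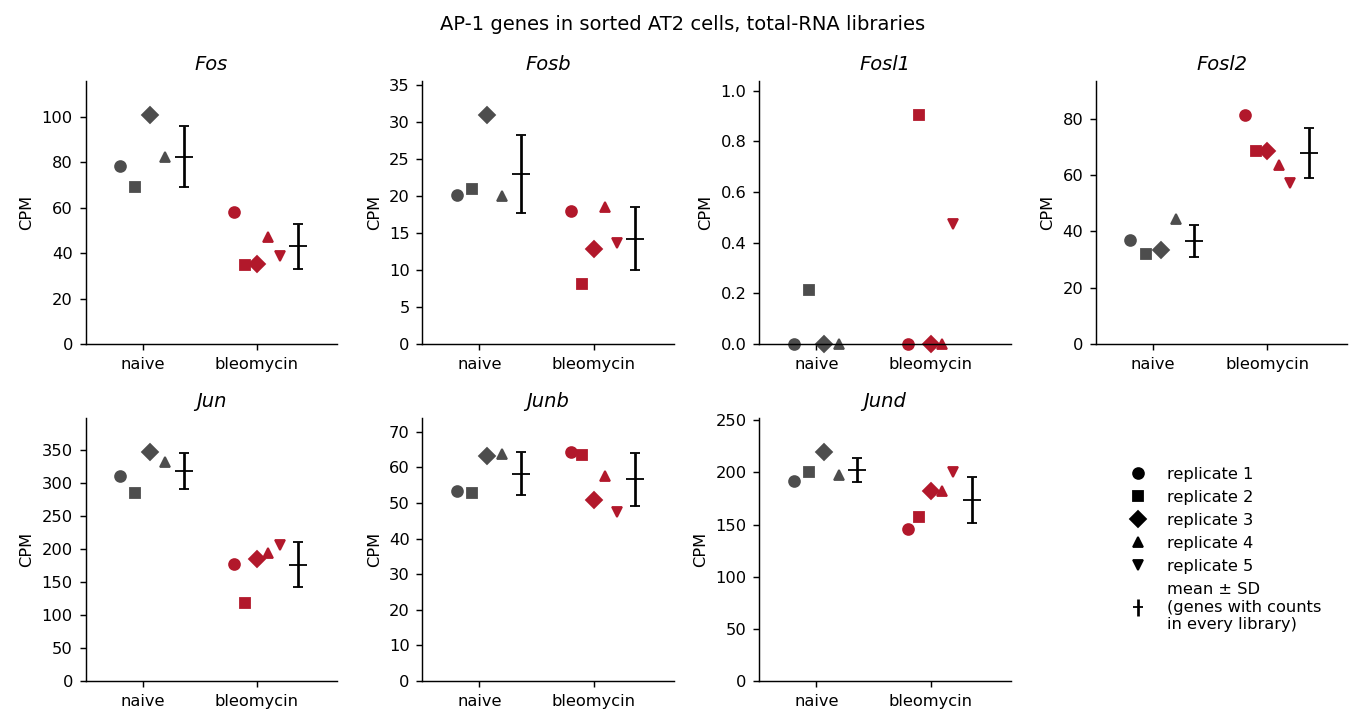
Each panel gives 1 AP-1 gene in CPM (vertical axis, from 0) for the 4 naive and 5 bleomycin libraries, with a marker shape per replicate and the mean ± SD for genes with counts in every library. Fos, Fosb and Jun sit lower and Fosl2 higher in every bleomycin library than in any naive library, while Junb and Jund overlap.

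Markers of other cells and states moved with the bleomycin group. The 8 fibroblast markers summed to 4.17 to 10.4 CPM in naive and 17.8 to 116 CPM in bleomycin libraries, highest in bleomycin 2, with Lum at 0 throughout. Only 3 of the 8, all collagen genes, were tested and each was called higher. Col1a1, Col1a2 and Col3a1 reached the filter's cutoff of 2.57 CPM in 1, 0 and 2 of 4 naive libraries, so they passed it through the bleomycin group and their calls give no support. The 7 endothelial markers summed to 16.7 to 26.2 and 17.7 to 73.5 CPM, with 2 of 4 tested called higher (all genes tested: 11.2%). Of 6 tested airway markers 2, Foxj1 and Ccdc153, were called higher. Foxj1, Ccdc153 and the endothelial Cdh5 reached the cutoff in 3 of 4 naive and 5 of 5 bleomycin libraries. They too passed it through the bleomycin group, so their calls give no support. The 7 alveolar type 1 markers summed to 1086 to 1313 CPM in naive and 1733 to 2295 CPM in bleomycin libraries, with 6 of 7 called higher. All 10 markers of transitional epithelial cells, which stand between type 2 and type 1 cells, were called higher (481 to 539 and 971 to 1457 CPM summed). Pdpn and Cldn4, from these epithelial lists, were also below the cutoff in all 4 naive libraries. The AT2 marker sums were lowest in bleomycin 1 (50851 CPM) and bleomycin 2 (59637 CPM). Of the 11 AT2 markers 3 were called higher and 2 lower (all genes tested: 11.2% and 9.31%). Among the lower was Nkx2-1, a lung epithelial transcription factor gene (-0.46, adjusted p 0.00685 by edgeR). The part of these cells and states in the AP-1 changes was not tested. Without bleomycin 2, the library richest in fibroblast markers, the changes were -0.88 for Fos, 0.89 for Fosl2 and -0.74 for Jun. These passed (adjusted p 9.03e-04, 4.13e-04 and 1.08e-04 by edgeR), whereas Fosb gave -0.56 and did not pass (0.0834). The remaining bleomycin libraries still held 17.8 to 54.5 CPM of fibroblast markers, against 4.17 to 10.4 CPM in naive ones, so that fit does not test their part.

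Of 25 other immediate-early genes tested after bleomycin, 7 rose and 3 fell, with a median of 0.39 (6 called without naive 2). Of all genes tested, 11.2% were called higher and 9.31% lower. The 7 include Nr4a3, Ccn1 and Ccn2, which passed the filter through the bleomycin group, so the count of 7 gives no support. Dusp1, a MAP kinase phosphatase gene, fell from 125 ± 8.89 (SD, n = 4) to 54.3 ± 9.28 CPM (n = 5), a change of -1.21 (adjusted p 4.82e-06 by edgeR). Ier2 fell from 62.0 ± 4.23 to 30.2 ± 8.10 CPM (-1.03, adjusted p 3.88e-04), and Zfp36, which encodes a protein that destabilises messenger RNA, fell by 0.54 on the log2 scale (adjusted p 0.0163). Zfp36 no longer passed without naive 2 (0.0719) or naive 4 (0.0984). The matricellular genes Ccn1 (from 4.28 ± 1.85 to 32.8 ± 12.2 CPM, change 2.90, adjusted p 4.82e-06) and Ccn2 (from 0.543 ± 0.140 to 10.3 ± 7.91 CPM, change 4.22, adjusted p 1.15e-04) rose. Ccn2 was below the filter's cutoff in all 4 naive libraries and passed through the bleomycin group, so it had to differ. Ccn1 reached the cutoff in 3 of 4 naive and 5 of 5 bleomycin libraries, so it too passed through the bleomycin group. Nr4a3, again named after its values were seen, rose by 1.87 (adjusted p 0.0326 by edgeR). It reached the cutoff in 1 of 4 naive and 4 of 5 bleomycin libraries. The calls for Ccn1 and Nr4a3 therefore give no support. Socs3 rose by 0.63 (adjusted p 0.00645) and Ier5 by 0.96 (adjusted p 0.0104). Egr1 had 40.5 ± 7.32 CPM in naive and 28.9 ± 11.9 CPM in bleomycin libraries, a change of -0.51 that did not pass (adjusted p 0.145), although it did without bleomycin 1 (-0.69, 0.0411) and without the filter on low counts (0.0485).

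Of 9 tested partners 2 were called, a share near the 20.5% of all genes: Atf3 rose (0.69, adjusted p 0.0484) and Atf7 fell (-0.49, adjusted p 0.039). The Atf3 call was lost without naive 1, 2 or 4 or bleomycin 1, 2, 4 or 5 (adjusted p 0.0501 to 0.152), with upper-quartile scaling (0.0533), with DESeq2 (0.0556) and with limma-voom (0.0978). Likewise the Atf7 call was lost without naive 2, 3 or 4 or bleomycin 1, 2 or 3 (0.0605 to 0.186). Among 17 MAP kinase cascade genes 2 were called, a share below the 20.5% of all genes. Map3k5, the stress kinase ASK1, fell from 106 ± 2.87 to 68.5 ± 8.36 CPM (-0.63, adjusted p 8.33e-04 by edgeR). Mapk9, which encodes the JUN kinase JNK2, fell by 0.46 on the log2 scale (adjusted p 0.0468) and no longer passed without any of the 4 naive libraries or without bleomycin 1, 2 or 3 (0.0723 to 0.145), without the filter (0.106) or with DESeq2 (0.0638). Crtc1, a CREB coactivator gene, was the 1 of 12 promoter factors called (-0.74, adjusted p 0.0316 by edgeR), also a share below that of all genes. Crtc1 was not called without naive 1, 2 or 4 or bleomycin 2 or 3 (0.061 to 0.0994). Of 10 turnover genes 1 was called, again a share below the 20.5% of all genes. This was Cops5, a cofactor of JUN, which rose (0.76, adjusted p 0.0159 by edgeR), a call lost without naive 3 (0.0671).

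Of 9 tested ERK feedback genes 3 were called (all genes tested: 20.5%). Spry1 (-0.85, adjusted p 1.48e-04 by edgeR) and Etv5 (-0.43, adjusted p 0.0199) fell and Spry4 rose (1.34, adjusted p 0.0277). Spry4 reached the filter's cutoff in 2 of 4 naive and 5 of 5 bleomycin libraries. It passed the filter through the bleomycin group, so its call gives no support. The Etv5 call was lost without naive 1, 2 or 4 (0.0519 to 0.0649), and the Spry4 call without naive 2, 3 or 4 or bleomycin 5 (0.0603 to 0.0887) and with limma-voom (0.117). Among 18 genes described as AP-1 targets 11 fell below the filter, and 6 of the 7 tested were called, each higher (all genes tested: 11.2%). They included Ccnd1, the cyclin D1 gene, which rose from 147 ± 17.4 (SD, n = 4) to 362 ± 63.2 CPM (n = 5; 1.30, adjusted p 3.56e-06), and Hbegf, which rose from 7.67 ± 1.82 to 31.9 ± 6.96 CPM (2.07, adjusted p 6.06e-06). The hyaluronan receptor gene Cd44 (0.51, adjusted p 0.00406) and the keratin gene Krt18 (0.82, adjusted p 2.19e-04) also rose, and Krt18 stands in the list of transitional markers too. Each of the 7 reached the filter's cutoff in all 4 naive libraries, and the count says nothing of the 11 not tested. Of 11 heat shock genes 6 rose (all genes tested: 11.2%) and none fell. Among those that rose were the HSP90 genes Hsp90aa1 (0.94, adjusted p 7.68e-04 by edgeR) and Hsp90ab1 (0.76, adjusted p 0.00451). Hspa1a (0.39, adjusted p 0.647) and Hspa1b (0.65, adjusted p 0.284) were not called.

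**Figure D4:**
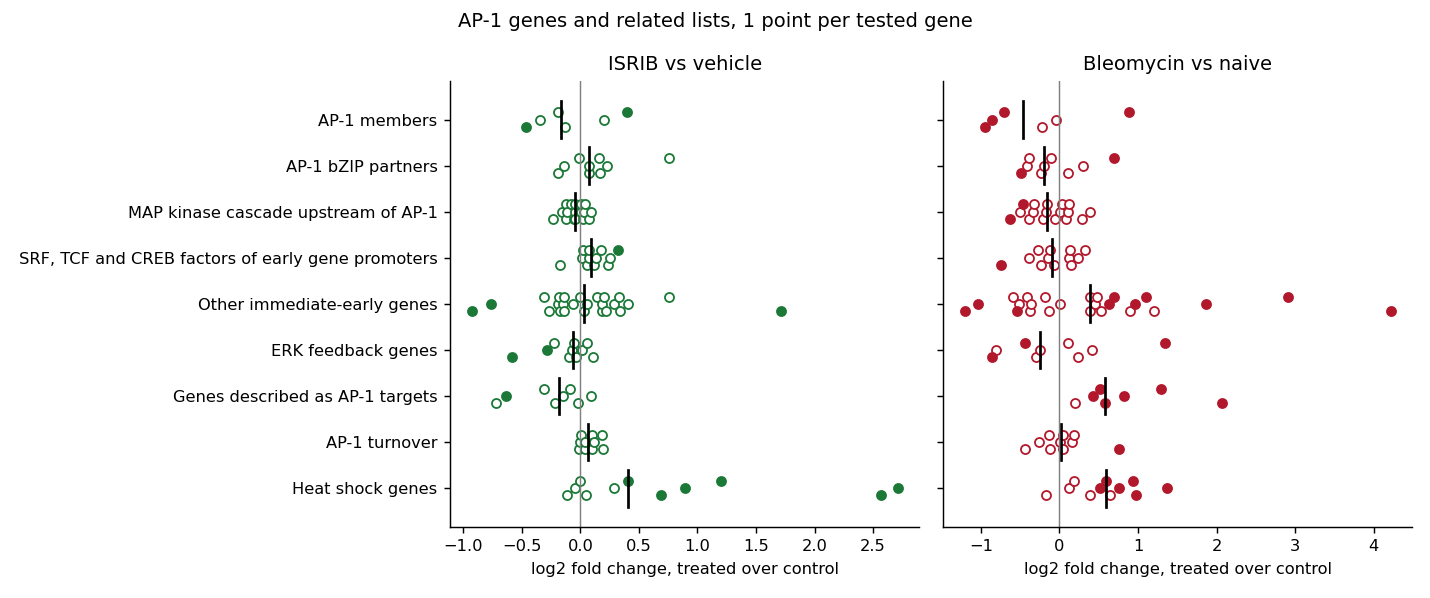
Each point is the log2 fold change (horizontal axis) of 1 tested gene in the AP-1 family or a related list, filled where its adjusted p was under 0.05, with a black bar at the list's median. The AP-1 medians lie at -0.16 after ISRIB and -0.47 after bleomycin, and the genes described as AP-1 targets at -0.18 and 0.58.

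Set side by side, the comparisons gave different values for each member. Jun changed by 0.40 after ISRIB and -0.86 after bleomycin, Junb by -0.47 and -0.04, and Fosl2 by -0.13 and 0.89. Fos changed by -0.19 and -0.95, and Fosb by -0.34 and -0.71. Jund changed by 0.20 and -0.22, with neither passing. The comparisons share no library and differ in kit, so the difference between them was not tested.

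**Figure D5:**
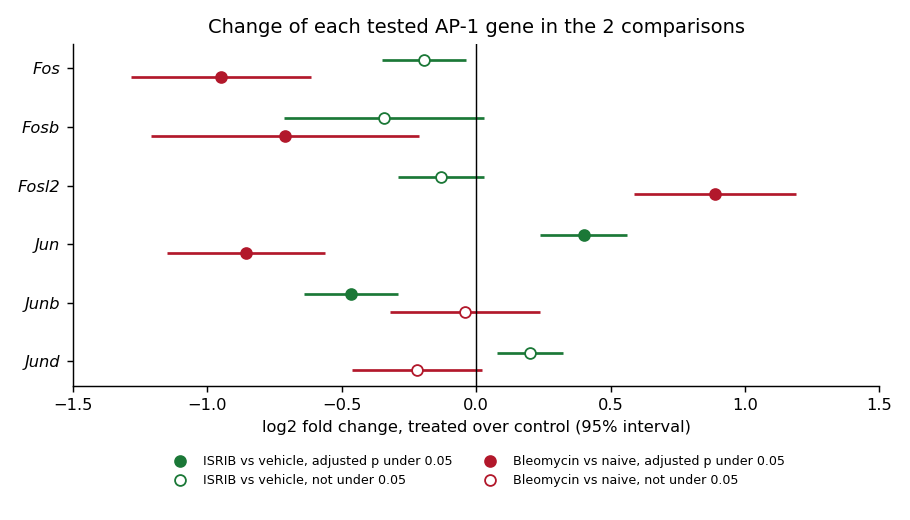
Points give the log2 fold change (horizontal axis) of each tested AP-1 gene after ISRIB and after bleomycin, with lines for the 95% interval and filled points for an adjusted p under 0.05. Jun lies at 0.40 and -0.86 and Fosl2 at -0.13 and 0.89, on opposite sides of 0.

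Exons of 4 members overlap another gene model on the opposite strand, and whether counting used the strand is not stated in the sources at hand. Jun shares 232 bases (7.28% of its exons) with the antisense RNA gene Junos. Junos had 16 ± 1.88 and 19.6 ± 2.03 CPM in vehicle and ISRIB libraries (n = 4 each; 0.29, adjusted p 0.161 by edgeR), and it fell from 37.1 ± 6.32 in naive (n = 4) to 15.9 ± 5.70 CPM in bleomycin libraries (n = 5; -1.25, adjusted p 6.34e-04). Reads of Jun and Junos in the shared bases may not be told apart. Junb shares 173 bases (7.52%) with Prdx2, a peroxiredoxin gene, which changed by -0.07 after ISRIB (adjusted p 0.596) and 0.38 after bleomycin (adjusted p 0.168). Jund shares 877 bases (52.6%) with Gm11175, which had 0 counts with poly(A) selection and 9 with total RNA. Fosl1 shares 1163 bases (57.2%) with Ccdc85b, which was not called in either comparison (adjusted p 0.874 and 0.182).

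The genes that most resembled Fos and Jun across libraries were taken by Pearson's r of log2 CPM with group means removed, as a description. Over the 8 poly(A) libraries Taf5 (r 0.989), Gcdh (0.978) and Chm (0.971) were most like Fos. For Jun they were Dnajb4 (0.985), Rfx7 (0.975) and mt-Nd5 (0.974), out of 12048 genes searched. Over the 9 total-RNA libraries Bcl2 (0.966), Pcgf2 (0.951) and Cfap69 (0.941) were most like Fos, and Zfp282 (0.979), Prdm11 (0.974) and Tbc1d30 (0.971) most like Jun, out of 11217. None of these genes was named in both sets. With so many genes searched over so few libraries, high values can arise by chance, and a chance level was not estimated.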

How the data were processed

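The authors deposited raw read counts per Ensembl gene, in 1 table per kit. Per the submitters' processing notes, Trimmomatic 0.36, STAR 2.6.0 and HTSeq 0.11.2 were used with build mm10. Annotation and strand setting: not given in the sources used here. Symbols, positions and exon lengths came from GENCODE M21 (GRCm38), which named 42546 of 43430 IDs. Counts were filtered (filterByExpr, minimum count 10, minimum total 15), scaled by TMM and tested for each kit alone with edgeR 4.0.16 (quasi-likelihood, two-sided, with group alone in the model). Calls needed a Benjamini-Hochberg adjusted p under 0.05 over every gene tested. CPM use effective library sizes. SE is the unshrunken log2 fold change over the root of F. DESeq2 1.42.0 and limma-voom 3.58.1 were alternatives. The procedure was tested on simulated counts in which 200 genes changed by 1 on the log2 scale. Of the changed genes tested, 91% were recovered in the ISRIB design and 63.4% in the bleomycin design. False calls made up 8.12% and 6.2% of the calls, both above the threshold of 0.05. The largest AP-1 change after ISRIB was -0.47, so the 91% does not give the power to find such changes. From each related list, called genes with at least 5 CPM on average could be named, at most 4 per direction by p; Egr1, Atf3, Hspa1a and Hspa1b were named in any case. The members and lists were chosen with earlier results of these data known.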

Additional observations from a re-analysis of the deposited data

Results flagged for a closer look

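In 2 of 26 gene-by-group sets with counts in every library, 1 library stood apart by Dixon's test, which chance does in about 1 set in 20. Fosb in naive 3 was 30.9 CPM, against 19.97 to 20.9 CPM in the other naive libraries, and the Fosb call after bleomycin was lost without it (-0.54, adjusted p 0.184 by edgeR). Junb in ISRIB 4 was 59.6 CPM, against 74.1 to 76.9 CPM in the other ISRIB libraries, and the Junb call after ISRIB passed without it.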

How the results depend on the processing

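After ISRIB 265 genes were called. A separate fit without the filter on low counts called 648, and fits without single libraries called 86 to 269, lowest without vehicle 1 (86), vehicle 2 (102) and ISRIB 4 (159). The count of called AP-1 genes after ISRIB, 2, ran from 1 to 2 over single libraries, with Jun lost without vehicle 1. After bleomycin 2304 genes were called, and the alternative fits called 1554 to 2589, with 3 to 4 AP-1 genes among them. Replicate numbers did not pair the libraries: same-numbered libraries correlated at -0.201 to 0.208 in the poly(A) set and -0.178 to 0.192 in the total-RNA set, and 1 of 4 and 0 of 4 were closest to their own number. With the replicate number as a block (bleomycin 5 left out for want of a partner) 277 genes were called after ISRIB and 2099 after bleomycin. After bleomycin Fosb then gave -0.73 (adjusted p 0.0578), Atf3 0.74 (0.0744) and Spry4 1.21 (0.0728), and Junb turned to 0.026, as it did over single libraries (up to 0.026 and down to -0.087). No alternative reversed any other AP-1 gene. Fosl1 had the fewest counts of the members, at most 17 in any library. The parts of depth, low expression and the bases shared with Ccdc85b in this were not tested.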
